A study of Mus musculus with 12 samples.

Results

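Ferritin and iron handling genes were followed by 10 genes, chosen by symbol from the 55586 genes of the counts table and described over all 12 libraries: Fth1, Ftl1, Pcbp1 and Ncoa4 (storage), Tfrc, Slc11a1 and Slc11a2 (uptake and transport), Slc40a1 (export), and Aco1 and Ireb2 (sensing). All 10 passed the filter on low counts, as did 13474 genes in all. RNA was sequenced in bulk from mouse peritoneal macrophages, the phagocytes of the abdominal cavity, cultured in serum-containing medium. There were 4 groups of 3 libraries. Cells received Remodelin hydrobromide followed by interferon gamma (IFN-γ), Remodelin hydrobromide alone, IFN-γ alone, or neither (control). Remodelin is an inhibitor of the RNA acetyltransferase NAT10, and IFN-γ is the classical activating cytokine of macrophages. The labels give no dose, time, strain, sex, age or number of animals, and name no genetic change. Whether a group's 3 libraries stem from different cultures or animals is not stated, so p-values reflect variation among libraries that may be purely technical.

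Iron bound to transferrin enters cells with the transferrin receptor and leaves the endosome through a metal transporter of the NRAMP family. Iron that is not used is stored in ferritin, a hollow shell of heavy and light chains, or leaves through ferroportin, the known iron exporter of mammalian cells. Iron regulatory proteins, the products of Aco1 and Ireb2, bind a hairpin called the iron responsive element when iron is scarce. Binding in a 5′ UTR blocks translation of ferritin and ferroportin, and binding in the 3′ UTR of the transferrin receptor mRNA stabilises it. Macrophages store iron and recycle it from engulfed red cells.

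The hairpins are shown because binding in a 5′ UTR acts on translation, which a count of RNA does not measure. Binding in the 3′ UTR of Tfrc acts on the RNA level itself. A match does not exclude other regulation of the RNA level. The strict pattern used here can also miss elements that depart from it. They were searched for as a C, a stem of 5 base pairs and the 6-base loop CAGTGN, on the transcribed strand, in the UTRs of GENCODE M21 transcripts (GRCm38). Of the 10 genes 4 held a match, and each is printed 5′ to 3′ over 30 bases with the loop in capitals. The matches of Fth1 (chr19:9982731-9982760, plus strand), Ftl1 (chr7:45459779-45459808, minus strand) and Slc40a1 (chr1:45925465-45925494, minus strand) lay in the 5′ UTR. The 4 matches of Tfrc lay in its 3′ UTR on the plus strand, at chr16:32631218-32631247, chr16:32631597-32631626, chr16:32631662-32631691 and chr16:32631709-32631738.
Fth1: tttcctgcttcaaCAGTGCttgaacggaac
Ftl1: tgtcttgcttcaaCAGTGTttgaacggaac
Slc40a1: ccaacttcagctaCAGTGTtagctaagttt
Tfrc, the first match: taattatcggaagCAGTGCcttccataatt
Tfrc, the second match: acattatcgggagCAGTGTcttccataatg
Tfrc, the third match: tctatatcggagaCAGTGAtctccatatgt
Tfrc, the fourth match: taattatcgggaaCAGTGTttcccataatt
The same pattern of C, stem and loop was found in the 5′ UTR of 28 of 21899 coding genes (0.128%) and in the 3′ UTR of 127 (0.58%). In the other 6 genes this pattern was not found in the UTRs searched.

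Libraries held 15917454 to 19418665 counts, and 3 counts, the floor for counting error, amounted to 0.154 to 0.188 CPM (reads relative to the TMM-scaled library). Summed macrophage markers (7 of 7 with reads) stood at 17137 to 24648 CPM with Remodelin and IFN-γ, 14998 to 25289 with Remodelin, 19968 to 22677 with IFN-γ and 15816 to 23632 in control. Nat10, the target of Remodelin, was read for its RNA only, and its log2 fold change with Remodelin was -0.02 ± 0.15 (SE; adjusted p = 0.935). Irf1, a classical IFN-γ target, had a log2 fold change of 0.20 ± 0.12 with IFN-γ (adjusted p = 0.511). Gbp2, another, stood higher in all 6 IFN-γ libraries (0.56 ± 0.12), but did not pass over all genes either (adjusted p = 0.270). IFN-γ libraries therefore means the libraries labelled with IFN-γ throughout, and every direction drawn from them rests on that label. Remodelin with IFN-γ 1 stood apart by GC content (Spearman correlation of its deviations with transcript GC content -0.69, against -0.373 to 0.55 in the other libraries) and Remodelin 1 had the lowest correlation with transcript length (-0.473, against -0.327 to 0.46 in the others). Erythroid markers summed to 0.116 to 2.04 CPM in 11 libraries and to 15.4 CPM in control 2, with Slc4a1 and Hemgn at 0 in every library.

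None of the 10 genes was called in any of 7 comparisons, tested with edgeR's quasi-likelihood test in 1 fit of all 12 libraries and called at a Benjamini-Hochberg adjusted p under 0.05 over all 13474 genes. Of all tested genes, 0.846% were called for Remodelin against control, 0.364% when Remodelin with IFN-γ was set against IFN-γ, 0.0148% for IFN-γ against control and 0.0% for Remodelin with IFN-γ against Remodelin. At an unadjusted p under 0.05 stood 2 of the 10 genes for Remodelin against control, beside 12.7% of all tested genes, and 2 when Remodelin with IFN-γ was set against IFN-γ, beside 16.2%. One gene, Tfrc, did so for IFN-γ against control, beside 5.37% of all genes, and 1 gene, Ncoa4, for Remodelin with IFN-γ against Remodelin, beside 7.74%. With 10 genes these counts lie near the shares over all genes. DESeq2 called 0 of the 10 in each of these comparisons. Averaged over both levels of IFN-γ, the Remodelin comparison set 6 libraries against 6, and 7.04% of all genes were called (2.24% higher and 4.8% lower). Of the 10 genes 4 had an unadjusted p under 0.05 there, beside 26.1% of all genes, and DESeq2 called 1, Slc40a1, beside 10.2% of all genes. The average IFN-γ comparison (0.00742% called) had 2 genes at an unadjusted p under 0.05, Tfrc and Ncoa4, beside 12.9% of all genes. The interaction of the treatments (0.00742% called) had 0, beside 2.3%, and DESeq2 called 0 of the 10 in both. The median log2 fold change of the 10 genes was 0.02 for the average Remodelin comparison, beside 0.03 over all tested genes, and -0.03 for the average IFN-γ comparison, beside 0. These comparisons share libraries, including the controls, and are not independent of each other.

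**Figure D1:**
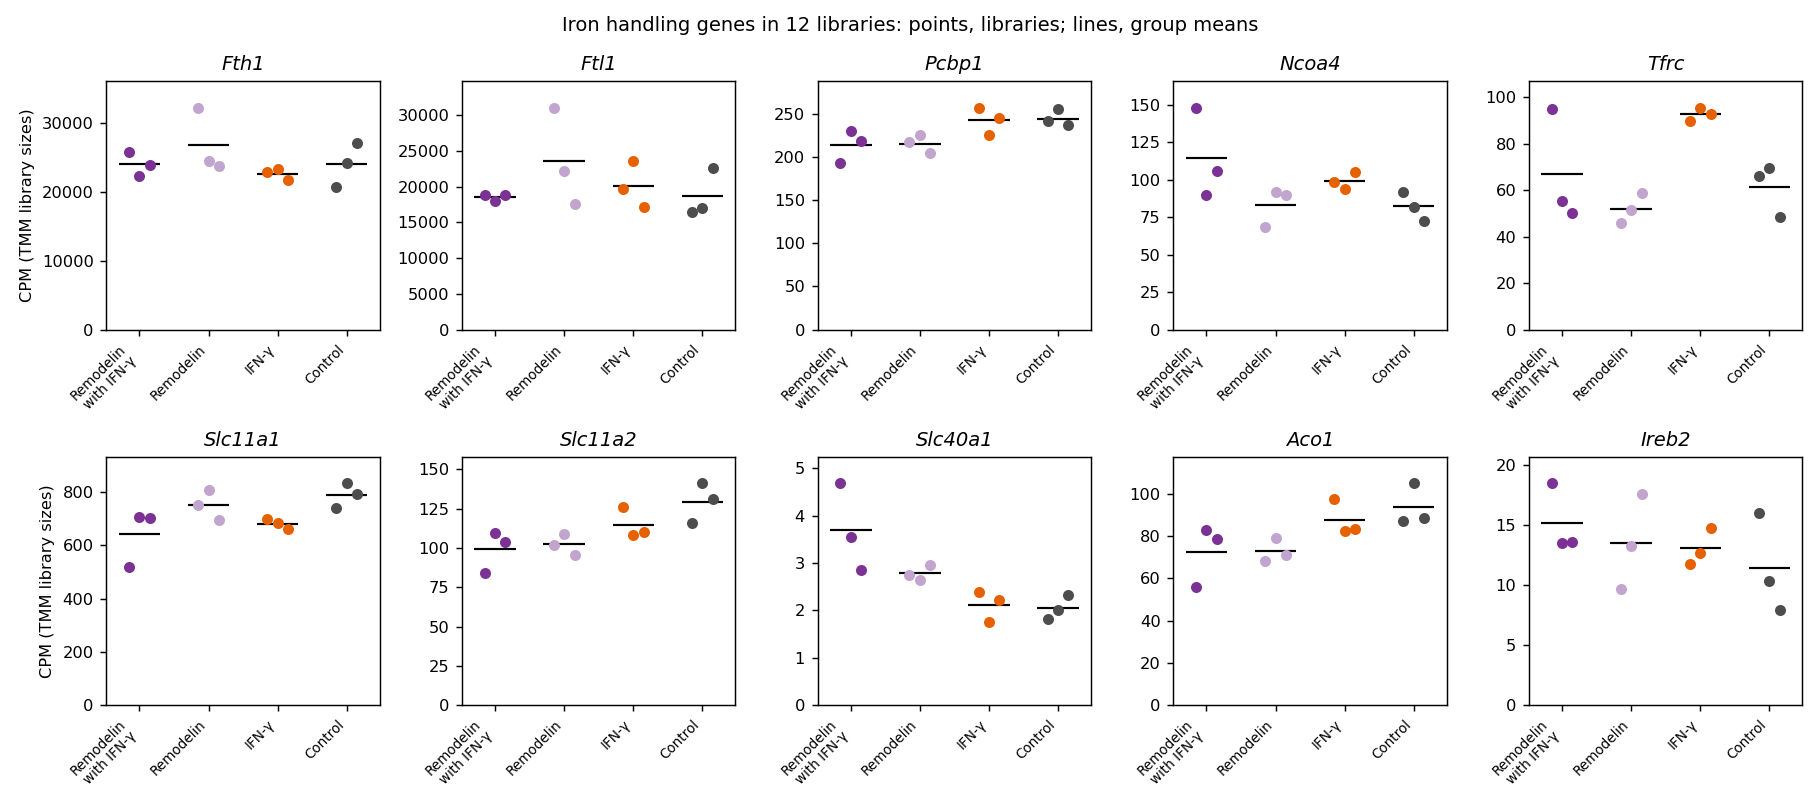
CPM (TMM library sizes, axes from 0) of the 10 genes in the Remodelin with IFN-γ, Remodelin, IFN-γ and control libraries; points are libraries and lines are group means (n = 3 each). Slc40a1 stood higher in all 6 Remodelin libraries (2.65 to 4.68 CPM) than in the other 6 (1.75 to 2.38 CPM), and Tfrc stood at 95.1 CPM in the first Remodelin with IFN-γ library, beside 89.8 to 95.6 CPM in the IFN-γ libraries.

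Whether the groups overlapped was counted as a description. All 3 Remodelin libraries stood apart from all 3 controls in 4 of the 10 genes, Slc40a1 (higher), Slc11a2, Aco1 and Pcbp1 (lower), while 16.4% of all tested genes did not overlap. Between Remodelin with IFN-γ and IFN-γ libraries, only Slc40a1 of the 10 did not overlap (27.7% of all genes). IFN-γ libraries stood apart from controls in 3 genes, Tfrc and Ncoa4 (higher) and Slc11a1 (lower), beside 17.7% of all genes. No member separated Remodelin with IFN-γ from Remodelin libraries, beside 9.48% of all genes. With 6 libraries against 6, Slc40a1 did not overlap between libraries with and without Remodelin (4.66% of all genes), and no member separated those with and without IFN-γ (0.675%).

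Ferritin was among the most abundant messages of these cells. Fth1, the heavy chain with ferroxidase activity (chr19:9980598-9985098, GRCm38), and Ftl1, the light chain that promotes mineral formation (chr7:45457944-45459884), together took 4.25% to 4.5% of all counts in Remodelin with IFN-γ libraries, 4.45% to 5.68% in Remodelin, 3.94% to 4.36% in IFN-γ and 3.91% to 4.79% in control. By counts Fth1 ranked between 1 and 3 in every library and Ftl1 between 2 and 6. Per length, on the authors' FPKM, Ftl1 ranked 1 or 2 and Fth1 between 3 and 8.

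On the same scale the 10 genes fell into the order Ftl1 (12072 to 24272 FPKM), Fth1 (5856 to 9744), Slc11a1 (138 to 223), Pcbp1 (104 to 139), Aco1 (12.4 to 23.2), Slc11a2 (13.1 to 22.0), Tfrc (7.77 to 15.4), Ncoa4 (7.67 to 15.7), Ireb2 (0.835 to 1.93) and Slc40a1 (0.194 to 0.516). Neighbours in this order whose libraries overlapped were Slc11a1 with Pcbp1, Aco1 with Slc11a2, Slc11a2 with Tfrc and Tfrc with Ncoa4. The ferritin chains stood apart from the remaining 8 genes in every library, and Ireb2 and Slc40a1 lay below all others.

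Fth1 had 25815, 22253 and 23942 CPM in Remodelin with IFN-γ libraries, 32257, 24443 and 23842 CPM in Remodelin, 22914, 23271 and 21672 CPM in IFN-γ, and 20681, 24264 and 27149.7 CPM in control. Remodelin 1 was the highest and control 1 the lowest, and all groups overlapped except that the 3 Remodelin libraries lay above the 3 IFN-γ libraries. The log2 fold change with Remodelin was 0.12 ± 0.13 (SE; 95% interval -0.14 to 0.39; adjusted p = 0.545) and with IFN-γ -0.12 ± 0.13 (adjusted p = 0.693). Neither difference exceeded the spread between libraries, and the interval excludes a change by Remodelin of over 0.39 on the log2 scale.

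Ftl1 had 18888, 17974 and 18788 CPM in Remodelin with IFN-γ libraries, 31036, 22193 and 17499 CPM in Remodelin, 19600, 23527 and 17195 CPM in IFN-γ, and 16469.8, 16970.2 and 22549.9 CPM in control. The Remodelin group held both the highest library and one near the low end, and every pair of treatment and control groups overlapped. The log2 fold change was 0.11 ± 0.15 with Remodelin (interval -0.21 to 0.43; adjusted p = 0.656) and -0.12 ± 0.15 with IFN-γ (adjusted p = 0.758). Without Remodelin 1, the library with the lowest correlation with transcript length, the Remodelin value was -0.01.

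The light chain exceeded the heavy chain per length in every library. The ratio of Fth1 to Ftl1 FPKM was 0.478 to 0.528 in Remodelin with IFN-γ, 0.401 to 0.526 in Remodelin, 0.382 to 0.487 in IFN-γ and 0.465 to 0.552 in control. By counts the order was mostly the opposite, with ratios of 1.24 to 1.37, 1.04 to 1.36, 0.989 to 1.26 and 1.2 to 1.43 in the same order of groups. The listed lengths behind FPKM were 3469 bases for Fth1 and 1340 for Ftl1, while the longest annotated transcripts measured 2062 and 968 bases, so the size of the per-length ratio depends on the length used. Besides Fth1 and Ftl1, 15 other rows carried ferritin symbols, and 6 of them had reads. Their likeness in sequence to Fth1 or Ftl1 was not measured. Ftl1-ps1 held 7249 to 11276 reads per library, 2.59% of the Ftl1 total. Any reads shared with such rows make the ferritin values uncertain, and Ftl1-ps1 itself had a log2 fold change of 0.02 ± 0.11 with Remodelin (adjusted p = 0.925).

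**Figure D2:**
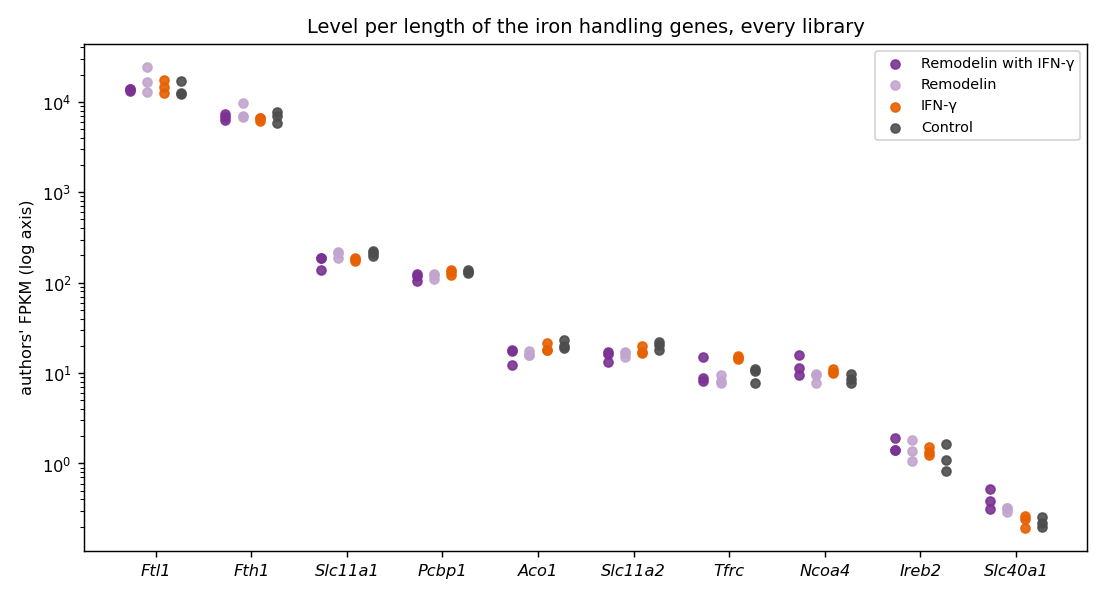
Level per length (the authors' FPKM, log axis) of the 10 genes, highest median on the left; each point is a library, coloured by Remodelin with IFN-γ, Remodelin, IFN-γ or control. The median FPKM ran from 13955 for Ftl1 to 0.278 for Slc40a1, and the libraries of a gene lay close together on this scale.

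The other 2 storage genes act around ferritin. Pcbp1 (chr6:86524492-86526321), an RNA-binding protein that also delivers iron to ferritin, had 193, 230.2 and 218 CPM in Remodelin with IFN-γ libraries, 217, 225 and 204 CPM in Remodelin, 257, 225 and 245 CPM in IFN-γ, and 241, 255 and 237 CPM in control. The Remodelin libraries all lay below the controls, while the groups with IFN-γ overlapped. With Remodelin the log2 fold change was -0.18 ± 0.09 (interval -0.38 to 0.01; adjusted p = 0.220), and it was 0.03 once library trends with GC content and length were removed. An antisense gene, 1600020E01Rik, overlaps Pcbp1 and held reads amounting to 1.25% of the Pcbp1 total; the strand setting of the counting is not given.

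Ncoa4 (chr14:32159865-32179855), the receptor that carries ferritin to the lysosome for breakdown, had 148, 89.9 and 106 CPM in Remodelin with IFN-γ libraries, 68.5, 91.8 and 89.9 CPM in Remodelin, 98.3, 93.6 and 105 CPM in IFN-γ, and 92.0, 82.0 and 72.7 CPM in control. The IFN-γ libraries all lay above the controls, and Remodelin with IFN-γ 1 was far above the rest. Over both levels of Remodelin the log2 fold change with IFN-γ was 0.36 ± 0.13 (interval 0.10 to 0.63), which did not pass over all genes (adjusted p = 0.322). With Remodelin it was 0.12 ± 0.13 (adjusted p = 0.567), and -0.06 with library trends removed.

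Tfrc (chr16:32608920-32632794) encodes the transferrin receptor, whose message carries the 3′ UTR hairpins printed above. It had 95.1, 55.5 and 50.4 CPM in Remodelin with IFN-γ libraries, 45.9, 51.3 and 58.7 CPM in Remodelin, 89.8, 95.6 and 92.7 CPM in IFN-γ, and 66.2, 69.7 and 48.3 CPM in control. The 3 libraries with IFN-γ alone lay close together and above every control and every Remodelin library. Among the Remodelin with IFN-γ libraries, the first matched the IFN-γ group, while the others lay in the range of the libraries without IFN-γ.

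The log2 fold change of Tfrc for IFN-γ against control was 0.59 ± 0.21 (interval 0.15 to 1.03), with an adjusted p of 0.889. The authors' deposited table gives 0.50 for that comparison with an adjusted p of 0.0225, where 122 genes in all were under 0.05. The authors' deposited table has 0 of the 10 genes under 0.05 in its other 3 comparisons, beside 129 genes in all for Remodelin against control, 591 when Remodelin with IFN-γ was set against IFN-γ, and 1 for Remodelin with IFN-γ against Remodelin. Over both levels of Remodelin the value with IFN-γ was 0.48 ± 0.15 (interval 0.17 to 0.79, adjusted p = 0.310). Under 18 alternatives it lay between 0.20 and 0.57 and passed in 1, when genes of low counts were also tested (0.47, adjusted p = 0.0303). For Remodelin with IFN-γ against Remodelin the value was 0.37 ± 0.21 (adjusted p = 0.674), and -0.05 to 0.54 under the alternatives.

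With Remodelin, Tfrc had a log2 fold change of -0.35 ± 0.15 (interval -0.67 to -0.04; adjusted p = 0.142), made up of -0.47 ± 0.21 in the presence of IFN-γ (adjusted p = 0.278) and -0.24 ± 0.21 in its absence (adjusted p = 0.630). The interaction, -0.23 ± 0.30, did not pass (adjusted p = 1). The average passed without Remodelin with IFN-γ 1, the library that stood apart by GC content, and also with that library kept and trends removed. Without it Tfrc fell by 0.49 (adjusted p = 0.0187), and with library trends in GC content and length removed it fell by 0.61 (adjusted p = 0.000329). The transcript of Tfrc has a GC content of 39.8%, against a median of 49.8% over tested genes. Cell cycle genes, 22 of 22 with reads, summed to 592 to 838 CPM in Remodelin with IFN-γ, 532 to 612 in Remodelin, 692 to 702 in IFN-γ and 615 to 688 in control, with the 838 in the same first library. Of those 22 genes 9 were called lower with Remodelin, beside 4.8% of all genes, and their part in the Tfrc values was not tested.

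**Figure D3:**
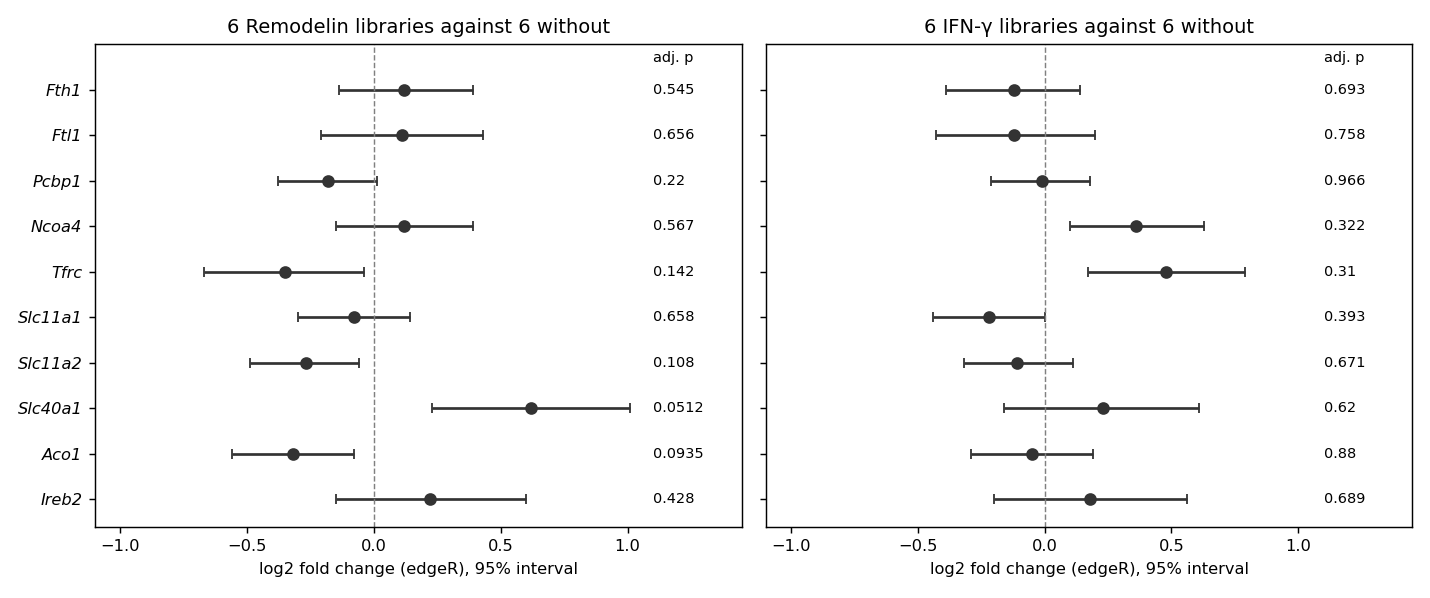
Log2 fold changes (edgeR, points) with 95% intervals of the 10 genes for the 6 Remodelin libraries against the 6 without (left) and the 6 IFN-γ libraries against the 6 without (right), with adjusted p at the right of each panel. No gene passed 0.05; Slc40a1 came nearest with Remodelin (0.62, adjusted p = 0.0512) and Tfrc with IFN-γ (0.48, adjusted p = 0.310).

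Of the 2 NRAMP transporters, Slc11a1 was the more abundant in every library. Slc11a1 (chr1:74375195-74386062), the phagosomal metal transporter of macrophages known for its role in resistance to intracellular bacteria, had a median of 188 FPKM, and Slc11a2 (chr15:100387898-100425072), the widely expressed endosomal transporter, 17.0 FPKM. The ratio of Slc11a1 to Slc11a2 FPKM was 10.5 to 11.5 in Remodelin with IFN-γ, 12.5 to 12.7 in Remodelin, 9.47 to 10.9 in IFN-γ and 10.1 to 10.9 in control. The Remodelin libraries thus had the highest ratios of the 4 groups, given as a description.

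Slc11a1 had 518, 705 and 701 CPM in Remodelin with IFN-γ libraries, 751, 806 and 696 CPM in Remodelin, 698, 685 and 659.9 CPM in IFN-γ, and 738, 832 and 790.4 CPM in control. The IFN-γ libraries lay below all controls, and Remodelin with IFN-γ 1 was the lowest of all. With IFN-γ it differed by a log2 fold change of -0.22 ± 0.11 (interval -0.44 to 0.00; adjusted p = 0.393). With Remodelin it was -0.08 ± 0.11 (adjusted p = 0.658), and 0.12 once library trends were removed.

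Slc11a2 had 84.2, 109.7 and 104 CPM in Remodelin with IFN-γ libraries, 102, 109 and 95.7 CPM in Remodelin, 126, 108 and 110 CPM in IFN-γ, and 116, 141 and 131 CPM in control. The Remodelin libraries lay below the controls, and Remodelin with IFN-γ overlapped IFN-γ by a narrow margin. Remodelin libraries had a log2 fold change of -0.27 ± 0.10 (interval -0.49 to -0.06), which did not pass (adjusted p = 0.108), and it stayed between -0.31 and -0.19 under 18 alternatives without passing in any of them.

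Slc40a1 (chr1:45908068-45926523) encodes ferroportin. It was the least abundant of the 10 genes per length, with 31 to 75 reads per library. It had 4.68, 3.55 and 2.85 CPM in Remodelin with IFN-γ libraries, 2.75, 2.65 and 2.95 CPM in Remodelin, 2.38, 1.75 and 2.23 CPM in IFN-γ, and 1.82, 2.01 and 2.33 CPM in control. All 6 libraries with Remodelin lay above all 6 without it, and the first of Remodelin with IFN-γ was the highest. Group means were 3.70 ± 0.924 CPM with both agents, 2.79 ± 0.150 with Remodelin, 2.12 ± 0.327 with IFN-γ and 2.06 ± 0.259 in control (SD, n = 3 each).

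The average log2 fold change of Slc40a1 with Remodelin was 0.62 ± 0.18 (interval 0.23 to 1.01), a 1.53-fold higher level, with an adjusted p of 0.0512. It was 0.80 ± 0.26 in the presence of IFN-γ (adjusted p = 0.166) and 0.44 ± 0.26 in its absence (adjusted p = 0.492), and the interaction of 0.36 ± 0.37 did not pass (adjusted p = 1). The value with IFN-γ was 0.23 ± 0.18 (adjusted p = 0.620). The average Remodelin value passed with DESeq2 (0.64, adjusted p = 0.0265) and with DESeq2 size factors in edgeR (0.64, 0.0497). It also passed without Remodelin with IFN-γ 3 (0.69, 0.0485) and without Remodelin 1 (0.62, 0.0440). With GC content and length trends removed it was 0.40 and did not pass (adjusted p = 0.121), and its transcript has a GC content of 42.0%.

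Neutrophil markers (9 of 9 with reads) moved along with Slc40a1 in the other direction, at 32.0 to 35.2 CPM in Remodelin with IFN-γ, 29.0 to 33.0 in Remodelin, 47.2 to 52.7 in IFN-γ and 47.5 to 55.9 in control. Mast cell markers (6 of 6 with reads) stood at 1.25 to 2.81, 1.97 to 3.17, 3.21 to 3.91 and 4.02 to 4.76 CPM in the same order of groups. Mesothelial and stromal markers (10 of 10 with reads) stood at 254 to 285, 181 to 296, 278 to 317 and 302 to 438 CPM. Called lower with Remodelin were 2 of 4 tested neutrophil markers (Mmp8 and Mmp9) and 0 of 2 mast cell markers, beside 4.8% of all genes. So were 4 of 10 mesothelial and stromal markers (Upk3b, Upk1b, Krt19 and Col3a1) and 1 of 6 B cell markers (Ighm). Of the macrophage markers 0 of 7 were called, and 0 of 7 tested large peritoneal macrophage markers. DESeq2 called 1 of the 7 macrophage markers, beside 10.2% of all genes, and 1 had an unadjusted p under 0.05, beside 26.1%. The list of small peritoneal macrophages and dendritic cells had 0 of 5. For the mast cell markers 1 had an unadjusted p under 0.05 and DESeq2 called 0. Their part in the Slc40a1 values was not tested, and in bulk RNA fewer cells of a type and less RNA per cell cannot be told apart. The ratio of Tfrc to Slc40a1 FPKM, import over export, was 22.8 to 29.5 in Remodelin with IFN-γ, 24.2 to 29.0 in Remodelin, 54.9 to 79.4 in IFN-γ and 30.1 to 52.9 in control. These ranges did not overlap between libraries with and without Remodelin, which is given as a description, since Slc40a1 alone already separated them.

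**Figure D4:**
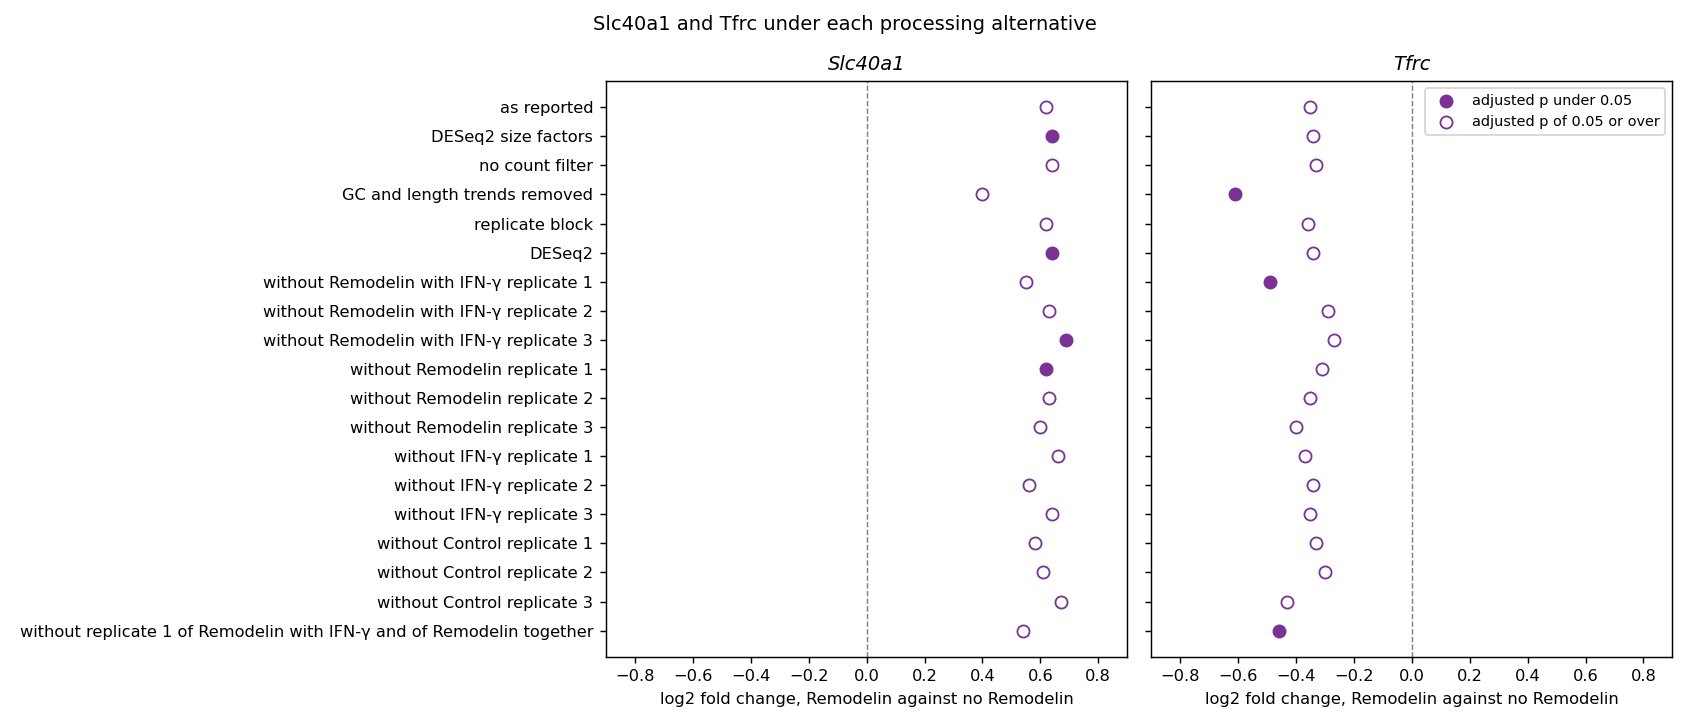
Log2 fold change of Slc40a1 and Tfrc for the 6 Remodelin libraries against the 6 without, as reported and under 18 processing alternatives; filled points had an adjusted p under 0.05. Slc40a1 stayed between 0.40 and 0.69 and Tfrc between -0.61 and -0.27, and each passed under some alternatives and not under others.

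The 2 sensors belong to the same family and differed in level and in pattern. Aco1 (chr4:40143081-40198338), which encodes iron regulatory protein 1 and doubles as cytosolic aconitase when it holds an iron-sulfur cluster, had a median of 18.2 FPKM. Ireb2 (chr9:54863789-54912530), which encodes iron regulatory protein 2, had 1.4 FPKM. Aco1 exceeded Ireb2 by 6.39 to 12.9 times per length in Remodelin with IFN-γ, 8.51 to 14.9 times in Remodelin, 11.9 to 17.4 times in IFN-γ and 11.5 to 23.6 times in control.

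Aco1 had 56.0, 82.7 and 78.7 CPM in Remodelin with IFN-γ libraries, 68.3, 79.1 and 70.9 CPM in Remodelin, 97.4, 82.4 and 83.5 CPM in IFN-γ, and 87.3, 105 and 88.6 CPM in control. Remodelin libraries lay below all controls, and Remodelin with IFN-γ 2 just overlapped the IFN-γ group. The log2 fold change with Remodelin was -0.32 ± 0.11 (interval -0.56 to -0.08), which did not pass (adjusted p = 0.0935), and with IFN-γ it was -0.05 ± 0.11 (adjusted p = 0.880). Under 18 alternatives the Remodelin value lay between -0.37 and -0.20 and passed in none.

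Ireb2 had 18.5, 13.5 and 13.6 CPM in Remodelin with IFN-γ libraries, 9.67, 13.3 and 17.6 CPM in Remodelin, 11.8, 12.7 and 14.8 CPM in IFN-γ, and 16.0, 10.4 and 7.93 CPM in control. Libraries of one group differed by more than the groups did, and all groups overlapped. The log2 fold change was 0.22 ± 0.18 with Remodelin (interval -0.15 to 0.60; adjusted p = 0.428) and 0.18 ± 0.18 with IFN-γ (adjusted p = 0.689), and the Remodelin value was -0.03 with library trends removed.

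In the library that stood apart by GC content the genes deviated largely in the order of the GC content of their transcripts. In Remodelin with IFN-γ 1 the 4 genes of lowest GC content, Ireb2 (39.0%), Tfrc, Slc40a1 and Ncoa4 (45.3%), stood 0.51 to 0.87 above their own mean over 12 libraries on the log2 scale. In the same library Slc11a2 (50.4%), Aco1 (52.1%), Slc11a1 (55.4%) and Pcbp1 (57.8%) stood at their lowest, with deviations of -0.39, -0.53, -0.46 and -0.24. The ferritin genes departed from this order, with deviations of 0.09 for Fth1 (50.0%) and -0.07 for Ftl1 (58.1%) there, and had their highest values in Remodelin 1, at 0.41 and 0.64. In control 3, at the other end of the GC trend, the deviations of Ireb2, Tfrc, Slc40a1 and Ncoa4 were -0.71, -0.45, -0.14 and -0.36. In control 2, whose correlation with GC content was nearly the same (0.534, against 0.55 in control 3), they were -0.31, 0.08, -0.35 and -0.18, so the order was not followed there by Tfrc.

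**Figure D5:**
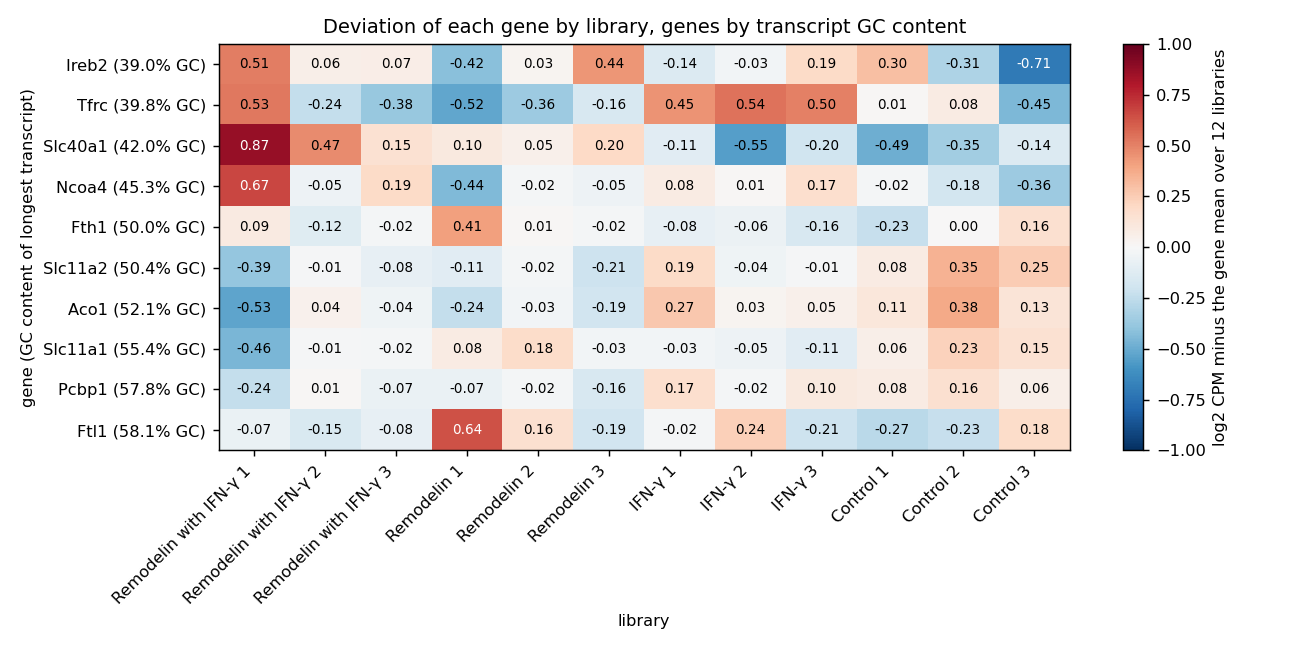
Deviation of log2 CPM from the mean of each gene over 12 libraries (colour and printed value), with Remodelin with IFN-γ, Remodelin, IFN-γ and control libraries from left to right and genes ordered by the GC content of their longest transcript, lowest on top. Remodelin with IFN-γ 1 has the 4 genes on top above their means (0.51 to 0.87) and Aco1 below it (-0.53).

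Correlations over the 12 libraries are a description, given with no p, since the libraries share depth, groups and trends with GC content. Among pairs of the 10 genes, Pearson's r was highest for Slc11a2 with Aco1 (0.95), Aco1 with Pcbp1 (0.943), Slc11a2 with Pcbp1 (0.916), Fth1 with Ftl1 (0.814) and Ireb2 with Ncoa4 (0.76). Of 7327 other genes compared, those most like Fth1 were Mtarc2 (0.963), Ndufs3 (0.958) and Slc25a3 (0.947), and those most like Tfrc were Serpinb2 (0.912), Apobec1 (0.885) and Prcp (0.878). For Slc11a1 they were Epn1 (0.975), Fam234a (0.964) and Tcirg1 (0.964), and for Slc40a1 Ccni (0.92), Bst1 (0.913) and Btg3 (0.909).

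Around the 10 genes, lists of other iron genes held 107 symbols, of which 102 were in the table and 88 were tested. In the average Remodelin comparison 2 of the 88 were called higher and 7 lower, beside 2.24% and 4.8% of all genes, and their median log2 fold change was 0.00, beside 0.03 over all genes. By list, 3 of 12 uptake genes were called (Steap3, Trf and Cd163), 4 of 33 mitochondrial and iron-sulfur genes (Hspa9, Iba57, Abcb8 and Ciapin1), 1 of 22 heme genes (Hp), 1 of 9 sensing genes (Egln2), 0 of 6 storage genes and 0 of 6 export genes. At an unadjusted p under 0.05 stood 33 of the 88, beside 26.1% of all genes, with 1 gene in each of the last 2 lists. DESeq2 called 15 of the 88, beside 10.2% of all genes: 4 uptake, 6 mitochondrial and iron-sulfur, 1 heme and 4 sensing genes, and 0 storage or export genes. In the average IFN-γ comparison edgeR and DESeq2 called 0 of the 88, and 11 had an unadjusted p under 0.05, beside 12.9% of all genes.

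Hspa9, the mitochondrial chaperone that serves iron-sulfur cluster transfer, had 321, 231 and 256 CPM in Remodelin with IFN-γ libraries, 217, 237 and 255 CPM in Remodelin, 176, 164 and 193 CPM in IFN-γ, and 187, 150.1 and 153 CPM in control. All 6 Remodelin libraries lay above the other 6, and the log2 fold change was 0.57 ± 0.11 (adjusted p = 0.00601). Steap3, the endosomal reductase that makes iron ready for Slc11a2, had 72.6, 107 and 99.0 CPM in Remodelin with IFN-γ libraries, 89.0, 109 and 98.4 CPM in Remodelin, 139.8, 126 and 131 CPM in IFN-γ, and 144, 157 and 134 CPM in control. Again the 6 and the other 6 did not overlap, and Steap3 fell by 0.53 ± 0.11 (adjusted p = 0.0100). Egln2, an iron-dependent prolyl hydroxylase, had 62.7 to 86.3 CPM with Remodelin and 87.9 to 136 CPM without (6 libraries each) and fell by 0.68 ± 0.12 (adjusted p = 0.00353). Hspa9, Steap3 and Egln2 passed under all 18 alternatives.

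The other called iron genes lay closer to the threshold. Trf, the plasma iron carrier transferrin, had 84.7 to 128 CPM with Remodelin and 119.7 to 175 CPM without and fell by 0.41 ± 0.11 (adjusted p = 0.0298), but lost its call without Remodelin with IFN-γ 1, Remodelin 3, any 1 of the 3 IFN-γ libraries or control 2 (adjusted p = 0.0568 to 0.0976). Iba57 (-0.66, adjusted p = 0.0197) and Ciapin1 (-0.54, adjusted p = 0.0228), which act in iron-sulfur cluster assembly, both lost their calls without Remodelin with IFN-γ 1, IFN-γ 1, IFN-γ 2 or control 2, and Ciapin1 also without Remodelin 3 or control 3 (adjusted p = 0.0505 to 0.0840). Abcb8, a mitochondrial transporter (-0.44, adjusted p = 0.0278), lost its call without any of 8 libraries. These were Remodelin with IFN-γ 3, Remodelin 2, Remodelin 3, the 3 IFN-γ libraries, control 2 and control 3. Abcb8 also lost its call with library trends removed (-0.22, adjusted p = 0.0517). Hp, the hemoglobin-binding haptoglobin, had 4.05 to 5.58 CPM with Remodelin and 5.82 to 8.60 CPM without (-0.57, adjusted p = 0.0272), and lost its call without any of 9 libraries, all except Remodelin with IFN-γ 2, Remodelin 1 and control 1. Neutrophil markers summed lower in the same 6 libraries, as given above, and their part in the Hp values was not tested.

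Cd163, the receptor for hemoglobin bound to haptoglobin, rested on few reads. It had 14, 9 and 13 reads in Remodelin with IFN-γ libraries, 9, 7 and 13 in Remodelin, 2, 1 and 3 in IFN-γ, and 9, 8 and 9 in control. Libraries with Remodelin alone overlapped the controls, and those with both agents lay above IFN-γ libraries, which stood at or under the floor of 3 counts. Cd163 was called higher with Remodelin on these reads (1.43 ± 0.37, adjusted p = 0.0285). That average was made up of 2.54 ± 0.56 in the presence of IFN-γ (adjusted p = 0.0619) and 0.32 ± 0.46 in its absence (adjusted p = 0.77). The interaction, 2.21 ± 0.74, did not pass. The call was lost without Remodelin with IFN-γ 1 or 3, Remodelin 3, IFN-γ 1 or 2, or control 2 or 3 (adjusted p = 0.0548 to 0.0949).

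Other iron genes followed by name did not pass with Remodelin. Hmox1, the heme-degrading enzyme, had 340.0 to 434 CPM with Remodelin and 351 to 404 CPM without (0.07 ± 0.09, adjusted p = 0.668). Fbxl5, the iron-sensing subunit of the ligase that degrades iron regulatory protein 2, had 30.4 to 48.7 CPM and 23.5 to 34.6 CPM (0.37 ± 0.13, adjusted p = 0.0888), and passed without Remodelin with IFN-γ 2 (0.45, adjusted p = 0.0366) or Remodelin 1 (0.41, 0.0461), and with DESeq2 (0.39, 0.0466). Slc25a37, the mitochondrial iron importer mitoferrin, stood at 0.38 ± 0.16 (adjusted p = 0.142) and passed without control 1 (0.50, adjusted p = 0.0394). Without the first library of both Remodelin groups, a setting chosen after seeing the data, Fbxl5 (0.35, adjusted p = 0.0454) and Slc25a37 (0.48, 0.0341) passed as well. Slc48a1, a lysosomal heme transporter, stood at 0.02 ± 0.11 (adjusted p = 0.901), and passed with library trends removed (0.24, adjusted p = 0.0359). Cp, a ferroxidase, and Lcn2, which binds bacterial iron carriers, were low, at 0.256 to 0.812 and 0.320 to 0.983 CPM with Remodelin and 0.509 to 1.36 and 0.509 to 1.30 CPM without (-0.67 ± 0.31 and -0.58 ± 0.30, adjusted p = 0.181 and 0.230), and Cp passed with library trends removed (-0.90, adjusted p = 0.0436). Hamp, the iron hormone hepcidin, had 0 CPM in 9 libraries and at most 0.175 CPM, which is at the floor.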

How the data were processed

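Total RNA from cultured mouse peritoneal macrophages was sequenced in 12 libraries, in 4 groups of 3 taken from the sample titles. For each library the authors' deposited table gives a raw count and an FPKM value of every gene, per the file headers. Its log2 values and p-values of 4 comparisons were made by the authors and were read side by side only. Per the submitters' processing notes, featureCounts 1.5.0-p3, HISAT2 2.0.5 and CASAVA 1.8 were used, with no role or order stated. Not given in the sources used here are the genome build, the annotation, the strand setting and the tool behind those comparisons.

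Counts were tested with edgeR 4.0.16 (R 4.3.3): TMM scaling, the default filter by group, and 1 quasi-likelihood fit of all 12 libraries with a mean per group and 8 residual degrees of freedom. Adjustment was by Benjamini-Hochberg over 13474 genes, with calls under 0.05. The average Remodelin comparison is the mean of Remodelin against control and Remodelin with IFN-γ against IFN-γ, and the average IFN-γ comparison is built likewise. The fit was also run on counts simulated from its own means and spread. These held no library trends in GC content or length, so that run cannot show how such trends affect the calls. The common biological coefficient of variation was 18.6%. Totals of 15917454 to 19418665 counts limit the precision of genes with few reads. The 95% intervals of fold changes come from the edgeR fit and cover the spread between libraries, while the floor of 3 counts covers counting error only. Levels between genes were compared on FPKM, and all else on CPM.

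GC content and length came from the longest GENCODE M21 transcript, and 99% of tested genes had a value. Gene positions and hairpins came from the same annotation (GRCm38). Positions in the deposited table do not look like those of GRCm38 and are not printed. They were used to find genes that overlap the members, such as the antisense gene at Pcbp1.

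The members, the gene lists and the comparisons were chosen with earlier results of these data known. Named genes were the 10 members, ferritin-like rows, other iron genes called in either average comparison (up to 6 in each direction by smallest p), 9 further iron genes whatever their values, 4 genes that check the labels (1 is not reported here), and the 3 genes most correlated with each of 4 members. Alternatives were DESeq2 size factors, no count filter, removal of library trends with GC content and length, a replicate block, DESeq2 1.42.0 and each library left out in turn. Leaving out the first library of both Remodelin groups together was chosen after seeing the data.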

Additional observations from a re-analysis of the deposited data

How the results depend on the processing

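Across 18 alternatives, 1249 of 1260 values of the 10 genes (70 pairs of gene and comparison) kept their side of the threshold. In 87 the sign of an uncalled log2 fold change turned, with sizes up to 0.21, and in 0 was either value called. The count of genes called, 0 in each of 7 comparisons, became 1 in these cases. With GC content and length trends removed it was 1, Tfrc, for Remodelin against control (-0.48, adjusted p = 0.0372), in Remodelin with IFN-γ against IFN-γ (-0.74, adjusted p = 0.00417) and for the average Remodelin comparison. With DESeq2, and with DESeq2 size factors, it was 1, Slc40a1, in the average Remodelin comparison. Without a count filter it was 1, Tfrc, in the average IFN-γ comparison, where 325 genes of the genome were called, against 1 with the filter. Leaving out 1 library gave 0 to 1 in the average Remodelin comparison and 0 in the other 6. Without the first library of both Remodelin groups it was 1, Tfrc, in the average Remodelin comparison (-0.46, adjusted p = 0.00819) and in Remodelin with IFN-γ against IFN-γ (-0.79, adjusted p = 0.0154). The cause of these changes was not tested. Under the replicate block 0 of the 10 genes were called in each comparison; Trf and Hp lost their calls (adjusted p = 0.0565 and 0.0542). Correlations of same-numbered libraries ran from -0.547 to 0.261, and 2 of 12 libraries correlated best with their own number. The labels do not say whether the numbers pair libraries. With 3 libraries per group, and library trends in GC content and length, these correlations cannot exclude it. Over all genes the average Remodelin comparison called 949, against 823 with DESeq2 size factors, 1406 without a filter, 1601 with trends removed, 578 under the replicate block, 1378 with DESeq2 and 298 to 1960 with 1 library left out. Depth limits Slc40a1, at 31 to 75 reads per library, most among the 10 genes.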
